A study of Mus musculus with 11 samples.

Results

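The 8 genes described here encode receptors with which innate immune cells recognise antibody-coated particles and bacterial products, or the adaptors through which such receptors signal, and they are 8 of 22367 protein-coding genes of the annotation. They were chosen by name and not by a measured value, although earlier results of these data were known. They are Fcgr1, Fcgr2b and Fcgr3 (receptors for IgG), Fcer1g and Tyrobp (adaptors), and Cd14, Tlr2 and Tlr4 (sensors of bacterial lipids). PU.1 ChIP-Seq, which sequences the DNA that an antibody against the Ets factor PU.1 recovers from fixed chromatin, was performed in MEL cells and in ES-EP to learn where PU.1 is located in immature erythroid cells. MEL cells are leukemic mouse erythroblasts, here a line labelled clone 4 that carries Gata-1 fused to ER and was grown with puromycin. ES-EP are non-leukemic erythroid progenitors derived from embryonic stem cells and were cultured with Epogen, SCF, IGF-1 and dexamethasone. For each cell type PU.1 was precipitated with the antibody T-21 from 2 chromatin preparations, for which the letters A and B of the sample titles were taken, each sequenced as 2 libraries, and input DNA, which had not been immunoprecipitated, was sequenced as 1 library in MEL cells and as 2 in ES-EP. Reads of both libraries were added up for each preparation (n = 2 preparations per cell type). The p-values between cell types given with limma measure the spread between these preparations. Those of the exact conditional test, which compares ChIP to input ratios between cell types on summed preparations, carry counting error only. Expression data were not used here, so the cell types were not checked against marker genes.

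IgG receptors on phagocytes either activate or inhibit the cell when they bind antibody. The activating receptors have no signalling motif of their own and depend on the common Fc gamma chain made from Fcer1g, which carries an ITAM, a tyrosine motif that recruits the kinase Syk. Tyrobp (DAP12) is a second ITAM adaptor and serves many receptors of macrophages and NK cells, while Fcgr2b carries an inhibitory motif instead. Cd14 passes lipopolysaccharide to Tlr4, and Tlr2 recognises bacterial lipoproteins. All of these genes are best known from myeloid cells, where PU.1 is a master regulator, and PU.1 recognises purine-rich sites around GGAA, at some of which it binds together with an IRF factor.

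Reads were counted, after a shift toward the middle of their fragment, in windows of 500 bp over each gene body with 10 kb on each side, which gave 639 member windows. The preparations held between 5697937 and 7095855 reads, and the inputs 4278560 (MEL) and 7488885 (ES-EP), so that a 500 bp window of the genome held between 0.806 and 1.41 reads on average. A window was called above input when the summed ChIP reads exceeded the input at their relative depth (two-sided exact binomial test, Benjamini-Hochberg adjusted over all windows of the genome with at least 10 reads) and the ratio was above 1 in each preparation. This test compares the reads of these libraries and has no replicate input in MEL cells. Intervals given below for ratios are 95% exact binomial intervals and cover counting error only.

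Among the members windows were called at Fcgr2b in both cell types, and at Fcer1g and Fcgr1 in MEL cells. The Fcgr1 call was lost under 4 of the 10 other settings of the test, and the ChIP to input ratio of its window was 2.91 in MEL cells against 5.597 in ES-EP, where 1 input read was counted. Windows were also called near Tyrobp in both cell types, but these lay at the start sites of its neighbours Hcst and Nfkbid. No window was called at Fcgr3, Cd14, Tlr2 or Tlr4 in either cell type. In MEL cells 5 of the 79 member windows that could be tested were called, beside 3.31% of all tested windows of the genome. In ES-EP the count was 4 of 68, beside 3.01%. At least 1 called window was found in 4 of the 8 gene regions in MEL cells, where 24.1% of all protein-coding genes had such a window, and in 2 of 8 in ES-EP, where 27.6% had. Of the 6 member windows called in either cell type, 3 were called in both, 2 in MEL cells alone and 1 in ES-EP alone. Of the 10702 windows called anywhere in the genome 31.9% were called in both, 26.5% in MEL cells alone and 41.6% in ES-EP alone.

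The sequences under 5 of the 6 called windows are shown because they hold words that PU.1 is known to recognise, alone or with an IRF factor. They were read from the mm9 assembly on the strand of the member gene. For the stretch in Hcst this is the strand of Tyrobp, opposite to that of Hcst. Capitals mark each match to GAGGAAGT, to its first letters GAGGAA, or to an Ets-IRF composite word (GGAA, any 2 bases, then GAAA), on either strand. The stretches lie within 75 bp of the position with the most ChIP reads (the summit), without the bases of untranslated exons, except that the Fcgr2b composite site is shown with its flanks in 30 bases. The first is this site in the 5′ untranslated exon of Fcgr2b (chr1:172906218-172906247, minus strand), the next the intronic window of Fcgr2b (chr1:172903249-172903399, minus), then the window upstream of Fcer1g (chr1:173164752-173164902, minus), the one at Fcgr1 (chr3:96097893-96098021, minus) and the one in Hcst in the Tyrobp region (chr7:31204601-31204751, plus).
Fcgr2b 5′ exon site: gaccgtttctTTTCACTTCCccatttggac
Fcgr2b intron: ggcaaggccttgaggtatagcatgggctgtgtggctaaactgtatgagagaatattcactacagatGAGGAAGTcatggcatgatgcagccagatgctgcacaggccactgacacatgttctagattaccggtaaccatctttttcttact
Fcer1g upstream: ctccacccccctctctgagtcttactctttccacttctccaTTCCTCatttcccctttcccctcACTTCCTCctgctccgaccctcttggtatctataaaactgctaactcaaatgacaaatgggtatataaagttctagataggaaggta
Fcgr1 start site: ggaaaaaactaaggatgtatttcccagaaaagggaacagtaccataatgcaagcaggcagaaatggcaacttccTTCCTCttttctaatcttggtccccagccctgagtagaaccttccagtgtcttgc
Hcst intron: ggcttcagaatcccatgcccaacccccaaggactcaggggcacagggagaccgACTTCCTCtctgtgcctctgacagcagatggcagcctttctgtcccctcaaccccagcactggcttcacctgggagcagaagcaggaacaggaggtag
GAGGAAGT occurred in 3 of the 6 called member windows, beside 27.7% of the 10702 windows called anywhere in the genome and 2.99% of the 2509032 windows in protein-coding gene regions. The nearest match lay 6 bp from the summit in the Fcgr2b intron, 8 bp in the window upstream of Fcer1g and 18 bp in Hcst. The shorter word GAGGAA, which every GAGGAAGT contains, occurred in 4 of the 6 windows (63.3% of called windows and 38.3% of gene-region windows) and lay 1 bp from the summit at Fcgr1. The composite word occurred once, 9 bp from the summit of Fcgr2b, in a window without either of the other words. It was found in 5.98% of called windows and 5.18% of gene-region windows, and in 300 bp promoters of RefSeq (GRCm38) the 3 words were found in 3.20%, 28.3% and 2.72%. The window at Nfkbid, whose sequence is not shown, held none of the 3 words.

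Fcgr2b, the inhibitory IgG receptor, had the most summed ChIP reads of any member window in both cell types. In the window over its start site (chr1:172906001-172906500) the MEL preparations held 53 and 52 reads and the ES-EP preparations 105 and 65, with 3 input reads in each cell type. By library this was between 5.85 and 10.2 RPM (reads scaled to library depth) in MEL cells and between 6.21 and 19.98 in ES-EP, against at most 0.701 in any input library. Every ChIP library lay above every input, and the cell types overlapped. The ChIP to input ratio was 11.8 in MEL cells (interval 3.93 to 58.2, adjusted p = 9.04e-08, exact binomial test) versus 31.7 in ES-EP (10.7 to 155, adjusted p = 4.7e-26). The window was called under all 10 other settings of the test in each cell type. The summit lay 34 bp downstream of the nearest start site of Fcgr2b, whose annotation begins further upstream at chr1:172906678. It was in the 5′ untranslated exon beside the composite word shown above, and the summits of the 2 cell types taken by themselves were 2 bp apart. Between cell types the log2 difference was −0.57 (SE 0.70, MEL minus ES-EP, limma adjusted p = 0.793), which was within the spread of the preparations.

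A further Fcgr2b window lay in an intron 2934 bp downstream of the start site (chr1:172903001-172903500), with 30 and 11 reads in ES-EP and 12 and 12 in MEL cells, and 2 input reads in each. It was called in ES-EP at a ratio of 11.5 (2.98 to 97.9, adjusted p = 0.000217, exact binomial test), but in MEL cells it was not, at 4.05 (1.00 to 35.3, adjusted p = 0.287 over all windows). Preparation A carried most of the ES-EP reads. The window was called in ES-EP under 8 of the 10 other settings, and not without preparation A or with each preparation tested by itself. The cell types could not be distinguished here (log2 difference −0.51, SE 0.61, limma adjusted p = 0.791). GAGGAAGT occurred 2 times in this window.

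**Figure D1:**
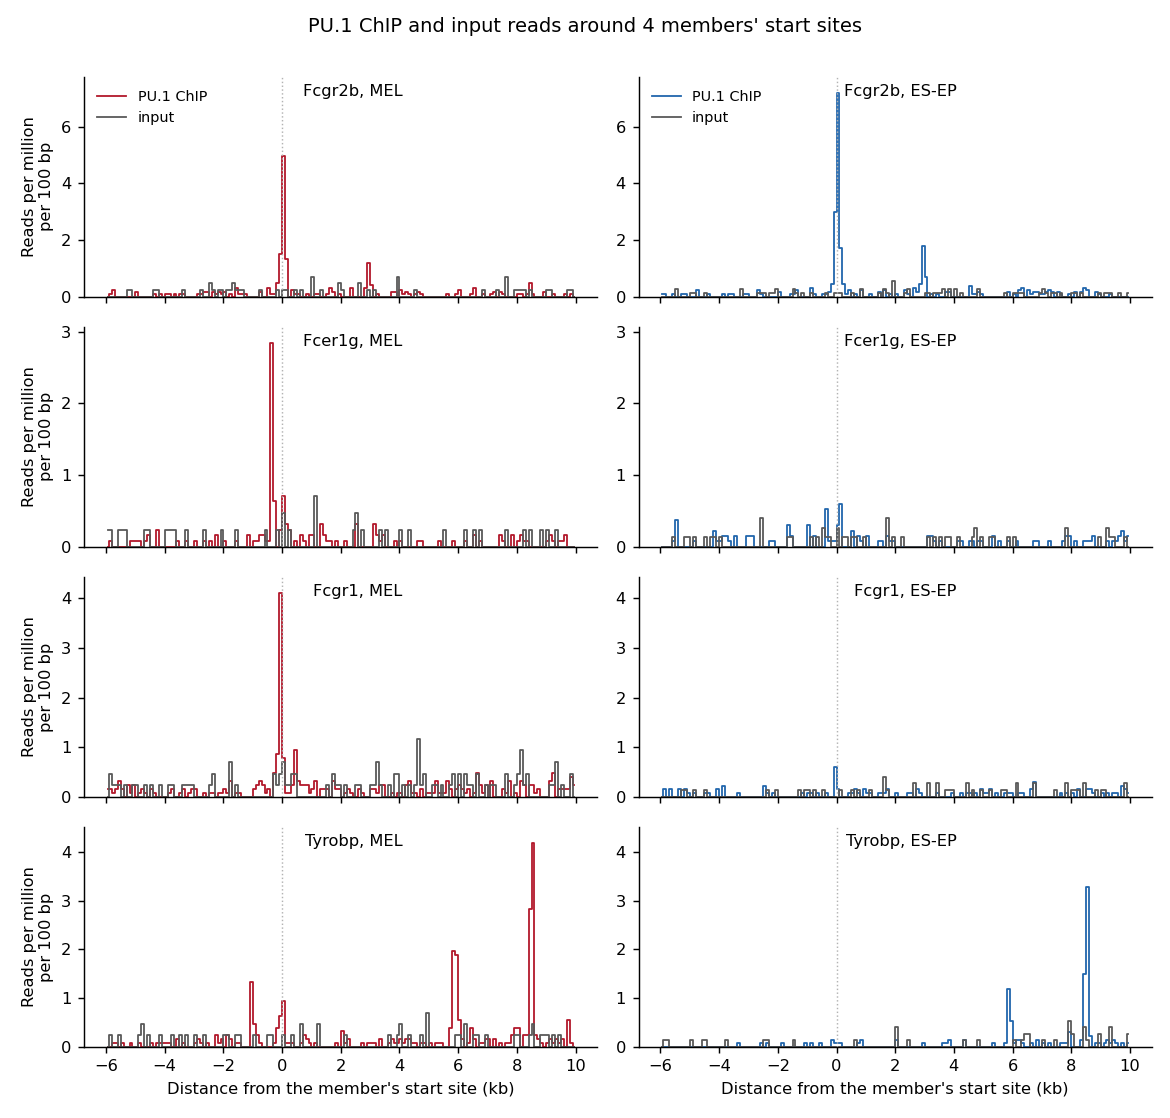
PU.1 ChIP reads (coloured, both preparations summed) and input reads (grey) as RPM in bins of 100 bp against the distance from the start site of Fcgr2b, Fcer1g, Fcgr1 and Tyrobp (dotted line), with MEL cells on the left and ES-EP on the right and the same vertical scale within a row. Fcgr2b rises at its start site in both cell types, Fcer1g and Fcgr1 rise near theirs in MEL cells, and the 2 tallest rises of the Tyrobp region lie downstream of the gene.

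Fcgr1 encodes the high-affinity IgG receptor and was called in MEL cells. Its window (chr3:96097501-96098000) held 34 and 35 reads in the MEL preparations against 6 and 4 in ES-EP, and the libraries ranged from 4.23 to 6.21 RPM in MEL cells and from 0 to 1.53 in ES-EP without overlap. The input differed in the same direction, with 8 reads in MEL cells versus 1 in ES-EP. The ChIP to input ratio in MEL cells was 2.91 (1.40 to 7.01, adjusted p = 0.0390, exact binomial test), and the settings under which this call was lost were the removal of repeated reads, no shift of reads, no filter on reads and each preparation tested by itself. In ES-EP the ratio was 5.597 with an interval of 0.796 to 243, which includes the value in MEL cells, and the window was not called (adjusted p = 0.547). The summit lay 54 bp upstream of the nearest start site of Fcgr1 and inside an intron of a longer transcript.

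Fcgr3, the low-affinity activating receptor, had no called window. The window with most reads (chr1:172994501-172995000, in an intron 276 bp downstream of a start site) held 11 and 23 reads in MEL cells with 2 input reads, and 19 and 18 in ES-EP with 21 input reads. Its ratio was 5.73 in MEL cells (1.47 to 49.3, adjusted p = 0.0681, exact binomial test) versus 0.986 in ES-EP (0.562 to 1.77, adjusted p = 1). It was called in MEL cells under 3 of the 10 other settings and in ES-EP under 0. The files list only reads with a unique alignment, and in this window only 15% of the 27-base words, the length of a ChIP read, occurred once in the genome. Over the whole Fcgr3 region the share was 59.3%, compared with 83.3% to 92.3% at the other members, so that PU.1 at Fcgr3 was not detectable over part of the gene at this read length.

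Fcer1g, the common gamma chain used by Fcgr1 and Fcgr3, was called in MEL cells. The window upstream of its start site (chr1:173164501-173165000) held 24 and 24 reads in the MEL preparations with 1 input read, and 6 and 4 reads in ES-EP with 4 input reads. The MEL libraries ranged from 2.43 to 5.22 RPM and the ES-EP libraries from 0.413 to 1.02, without overlap. In MEL cells the ratio was 16.2 (2.77 to 653, adjusted p = 0.00124, exact binomial test) and the call held under all 10 other settings. In ES-EP the ratio was 1.40 (0.404 to 6.11), and the window was called under none of the 10 settings. Nevertheless the difference between cell types, 2.34 on the log2 scale (SE 0.68), did not pass the test over all windows (limma adjusted p = 0.129). It passed under 3 of 12 other limma settings (the limma trend, median-ratio scaling and each library as a sample), and over the 12 the adjusted p ranged from 0.00876 to 0.964. The ChIP to input ratio of the window did not differ between the cell types past the exact conditional test (adjusted p = 0.487). Of the ChIP reads of both cell types in this window, 46 lay on the plus strand and 12 on the minus strand. The summit was 331 bp upstream of the start site, between genes, at the GAGGAAGT shown above.

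Tyrobp, the ITAM adaptor of many activating receptors, shares its surroundings with Hcst, which encodes the related adaptor DAP10, and with Nfkbid, a nuclear inhibitor of NF-kappaB. Both called windows of the region were called in both cell types, in MEL cells under all 10 other settings and in ES-EP under 9 of 10 each, the exceptions being no filter on reads at Hcst and each preparation tested by itself at Nfkbid. The window in Hcst (chr7:31204501-31205000, in an intron 196 bp from the Hcst start site) held 20 and 43 reads in MEL cells with 2 input reads, and 13 and 14 in ES-EP with 1. The ratios were 10.6 (2.82 to 89.6, adjusted p = 0.000211, exact binomial test) and 15.1 (2.49 to 619, adjusted p = 0.00460). The window at Nfkbid (chr7:31207001-31207500, summit 101 bp upstream of a start site and in an intron of a longer transcript) held 29 and 69 reads in MEL cells with 3 input reads, and 50 and 19 in ES-EP with 4. Here the ratios were 11.0 (3.66 to 54.3, adjusted p = 4.35e-07) and 9.65 (3.60 to 36.4, adjusted p = 2.3e-07). At Nfkbid the preparations of 1 cell type differed from each other by more than the cell types did (log2 difference 0.59, SE 0.66, limma adjusted p = 0.790). From the Tyrobp start site the summits were 5869 and 8517 bp away.

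At the start site of Tyrobp itself (chr7:31198501-31199000) the MEL preparations held 7 and 20 reads with 1 input read, and the ES-EP preparations 1 and 4 reads with none. This window was not called in MEL cells (adjusted p = 0.0737, exact binomial test) and held too few reads to be tested in ES-EP. In MEL cells 6 and 20 reads, with 1 input read, also lay about 1 kb upstream (chr7:31197501-31198000), where the adjusted p was 0.101. Most reads of both windows came from preparation B.

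**Figure D2:**
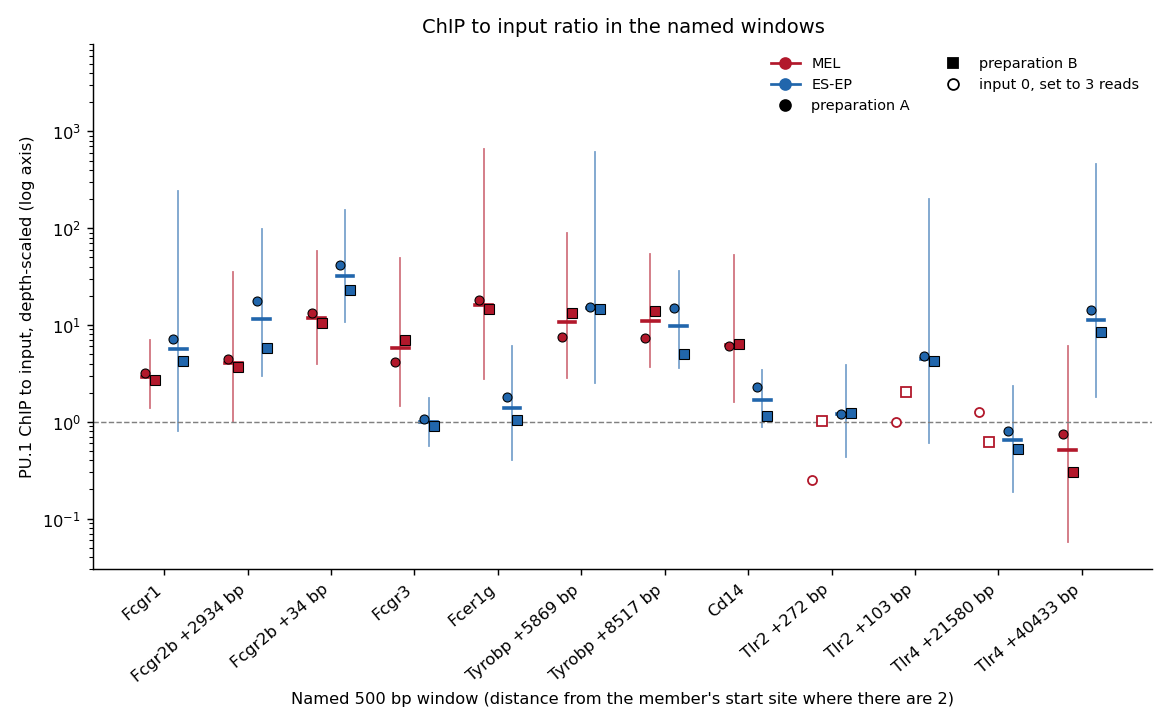
ChIP to input ratio, scaled by depth, in the 12 named windows on a logarithmic axis, with circles for preparation A, squares for preparation B, short bars for their sum and vertical lines for its 95% exact binomial interval. The intervals of the Fcgr2b start site lie above 1 in both cell types (11.8 and 31.7), while every interval drawn at Tlr2 and Tlr4 includes 1 except that of the Tlr4 window at +40433 bp in ES-EP, which rests on 1 input read. Open symbols mark windows without input reads, set to 3 reads, for which no interval is drawn.

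Cd14, Tlr2 and Tlr4, which together detect lipopolysaccharide and lipoproteins, had no called window. In the Cd14 region the window with most reads lay outside the gene at chr18:36894501-36895000, in a coding exon of the neighbour Tmco6 and 174 bp from the Tmco6 start site, with 16 and 21 reads in MEL cells (2 input reads) versus 25 and 14 in ES-EP (13 input reads). The adjusted p was 0.0560 in MEL cells versus 0.555 in ES-EP (exact binomial test), and the window passed in MEL cells under 6 of the 10 other settings. All 13 ES-EP input reads came from input library 2, and input library 1 held 0. The window at the Cd14 start site (chr18:36886001-36886500) held 3 and 0 reads in MEL cells versus 8 and 3 in ES-EP. At Tlr2 the 2 windows with most reads lay at its start site, and the one with more reads in MEL cells (chr3:83645501-83646000) held 4 and 10 with no input read, at an adjusted p of 0.228. In ES-EP the other Tlr2 window (chr3:83645001-83645500) held 6 and 7 reads with 6 input reads, a ratio of 1.21 (0.430 to 3.89).

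The Tlr4 region was long, with 246 windows, because 1 transcript extends beyond the others. In MEL cells none of these windows reached 10 reads of ChIP and input together, so that nothing could be tested there, and in ES-EP 13 were tested and none was called. The ES-EP window with most reads (chr4:66529001-66529500) lay 40433 bp downstream of the nearest start site and held 12 and 8 reads with 1 input read, against 2 and 1 reads with 2 input reads in MEL cells. Its ratio in ES-EP was 11.2 with an interval of 1.79 to 464 (adjusted p = 0.0594, exact binomial test), and it was called in ES-EP under 3 of the 10 other settings. In MEL cells the window with most reads (chr4:66510001-66510500) held 5 and 3.

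The cell types were then compared over whole gene regions, which hold more reads than windows. PU.1 ChIP reads passed the test (limma, n = 2 preparations per cell type) in 3 of the 8 regions, of which 2 were higher in MEL cells (5.99% of all tested gene regions were) while 1 was higher in ES-EP (2.95%). The median log2 difference of the 8 was 0.15, beside −0.07 over all genes. The Fcgr1 region held 258 and 329 reads in MEL cells versus 98 and 122 in ES-EP, or 1.44 and 1.502 against 0.497 and 0.548 RPM per kb, without overlap (log2 difference 1.49, SE 0.18, limma adjusted p = 0.000854). The Tyrobp region held 120 and 267 reads in MEL cells versus 95 and 80 in ES-EP (1.12, SE 0.27, limma adjusted p = 0.0256), and this call was lost without MEL preparation B (log2 difference 0.70) or ES-EP preparation B (0.91), with adjusted p-values of up to 0.102. The Tlr4 region held 180 and 199 reads in MEL cells versus 311 and 332 in ES-EP (−0.68, SE 0.18, limma adjusted p = 0.0380), and this call was lost under the replicate block for the preparation's letter and without MEL preparation B or either ES-EP preparation (between −0.72 and −0.60, adjusted p up to 0.162). Tlr2 was at 0.63 (SE 0.20) with an adjusted p of 0.0725 and passed under 2 of 10 other limma settings (median-ratio scaling and each library as a sample, adjusted p down to 0.0181). The regions of Fcgr2b, Fcgr3, Fcer1g and Cd14 lay between −0.10 and 0.19 with adjusted p-values of at least 0.745.

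Input DNA differed between the cell types at the same 3 genes. In the Fcgr1 region the depth-scaled input of MEL cells was 2.90 times that of ES-EP (interval 2.32 to 3.64, 214 against 129 reads), beside a median of 1.03 over all gene regions, and in the surrounding 1 Mb on each side it was 2.66 times. Of 21762 gene regions 99.1% had a ratio at or below that of Fcgr1. At Tyrobp the input was 2.84 times (1.96 to 4.16, 78 against 48 reads) and around it 2.10 times. At Tlr4 it was 0.519 times (0.413 to 0.647, 104 against 351 reads) and around it 0.704 times. At the other 5 members the input ratio lay between 0.916 and 1.26, and each interval included 1, although around Tlr2 the input was 1.49 times. ChIP relative to input had overlapping intervals in the cell types, 0.925 (0.790 to 1.09) in MEL cells versus 0.954 (0.765 to 1.196) in ES-EP at Fcgr1, 1.67 (1.31 to 2.16) and 2.04 (1.48 to 2.87) at Tyrobp, and 1.23 (0.987 to 1.54) and 1.03 (0.899 to 1.17) at Tlr4. At each of the 3 the sign of the difference was thus the opposite of that in ChIP reads. When this ratio was compared between the cell types with an exact conditional test, an alternative chosen after the inputs had been seen to differ, 0 of the 8 regions passed (adjusted p between 0.260 and 0.999), beside 6.59% of all 21805 gene regions. Across the 8 members the log2 input ratio and the log2 ChIP ratio of the cell types were correlated with r = 0.93, and across 21762 gene regions with r = 0.70, as a description of points that share the same libraries.

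**Figure D3:**
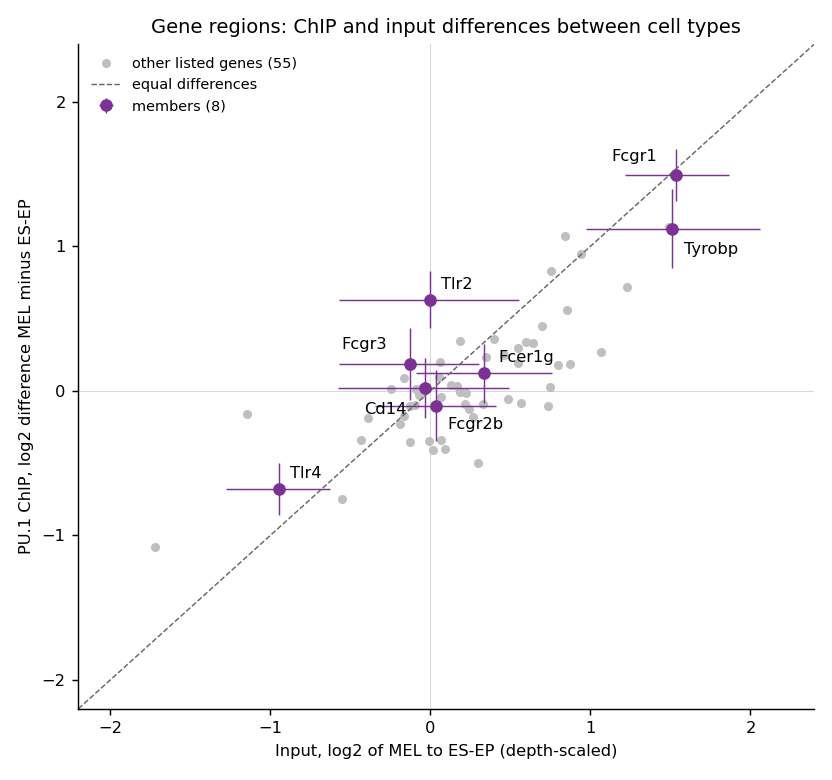
Log2 difference of PU.1 ChIP between MEL cells and ES-EP (limma, bars are the SE) against the log2 ratio of their inputs (bars are 95% exact binomial intervals) for the 8 gene regions and, in grey, 55 other genes of the pathways, with a dashed line where both differences are equal. Fcgr1, Tyrobp and Tlr4, which passed the test on ChIP reads, differ in the same direction in ChIP and in input, and Tlr2 lies above the dashed line at an input ratio of 1.00.

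Among single windows 1 of the 28 member windows with at least 20 ChIP reads differed between the cell types, the Fcgr1 window, which was higher in MEL cells as 0.16% of all tested windows were. Its log2 difference was 2.85 (SE 0.69, limma adjusted p = 0.0245). It stayed between 2.26 and 3.22 under 12 other limma settings but passed the test under only 5 of them. With the replicate block it did not pass, where only 10 of 65012 windows of the genome did (0.0154%). The 12 include the fits without 1 preparation, which leave a single preparation in a cell type and gave 2.42 to 3.13. Relative to input its sign turned (log2 −0.94) and it did not pass (adjusted p = 1, exact conditional test). By that test 0 of the 28 member windows passed, beside 0.463% of all windows tested, so that the count of 0 does not set the members apart from the background. In limma 3 of the 28 had an unadjusted p below 0.05, beside 6.46% of all windows.

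Other genes of the same pathways, 57 in 5 lists, were counted in the same way, and 17 had a called window in MEL cells against 15 in ES-EP. These counts lie near the shares of all protein-coding genes, 24.1% in MEL cells and 27.6% in ES-EP, which also stand beside the counts of each list below. For 3 of the 17 and 4 of the 15 the called window with the highest ratio was nearest to the start site of another gene. The adaptors and kinases downstream of the receptors had 10 of 13 in MEL cells and 7 of 13 in ES-EP. Their regions ranged from 45 windows at Hcst to 310 at Lyn. A longer region has more windows that can be called, and the counts were not adjusted for this. Hcst was counted through the same 2 windows as Tyrobp among the members. At Irak1, a kinase of Toll-like receptor signalling, the window over the start site held 95 and 153 reads in MEL cells (3 input reads) versus 218 and 79 in ES-EP (6 input reads). Lyn, the Src family kinase that phosphorylates ITAMs, had 27 and 32 reads with 1 input read in ES-EP, 80976 bp downstream of its start site. This window lay inside the Lyn gene, 76562 bp from the nearest start site, that of Rps20. In MEL cells Lyn had 17 and 38 reads at 4976 bp, also with 1 input read. The signalling chain Cd247 had 29 and 32 reads with 1 input read in MEL cells, 7062 bp upstream of its start site. At Irak3, an inhibitor of the pathway, 43 and 56 reads with 1 input read in MEL cells and 56 and 32 with 3 in ES-EP lay 17965 bp into the gene, about as far as from the start site of its neighbour Tmbim4. Syk, the kinase recruited by Fcer1g and Tyrobp, was called in MEL cells, with 34 and 79 reads and 2 input reads centred 292 bp upstream of its start site.

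Of 11 other Fc receptors and relatives 0 were called in MEL cells versus 1 in ES-EP (Fcer2a, with 23 and 23 reads and 2 input reads, in a window whose nearest start site was that of Trappc5). Among 14 Toll-like receptors and partners there were 1 in MEL cells versus 3 in ES-EP. Tlr9, which senses bacterial DNA, was called in both, with 27 and 29 reads in MEL cells versus 36 and 19 in ES-EP in a window 179 bp upstream of its start site (3 and 1 input reads). Tlr6, the partner of Tlr2, was called in ES-EP with 22 and 17 reads and 1 input read, and Ly96 (MD-2), the partner of Tlr4, with 31 and 16 reads and 3 input reads. Of 11 receptors listed as partners of Tyrobp or Fcer1g or as relatives of such partners, 3 were called in MEL cells (Trem2, Treml1 and Pirb) versus 2 in ES-EP (Trem2 and Pirb, the latter in a window 13204 bp from its own start site and nearest to that of Rps9, with 80 and 44 reads and 6 input reads). Of these Trem2 signals through Tyrobp, whereas Pirb and Treml1 carry inhibitory motifs of their own and are not such partners. Near its own start site Pirb had 56 and 59 reads and no input read in MEL cells, at least 12.9-fold above a floor of 3 input reads, and Trem2 had 13 and 21, at least 3.82-fold. Of 8 other innate receptors 3 and 2 were called, with Nod2, a sensor of bacterial peptidoglycan, at a ratio of 12.1 in MEL cells (53 and 126 reads, 5 input reads) versus 33.2 in ES-EP (152 and 85 reads, 4 input reads). Cd36, a scavenger receptor, was called in both cell types in a window inside its annotated gene body, 4036 bp upstream of the nearest of its start sites. It had 19 and 30 reads in MEL cells with 0 input reads, and 28 and 15 in ES-EP with 1. These shares were not tested against each other.

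**Figure D4:**
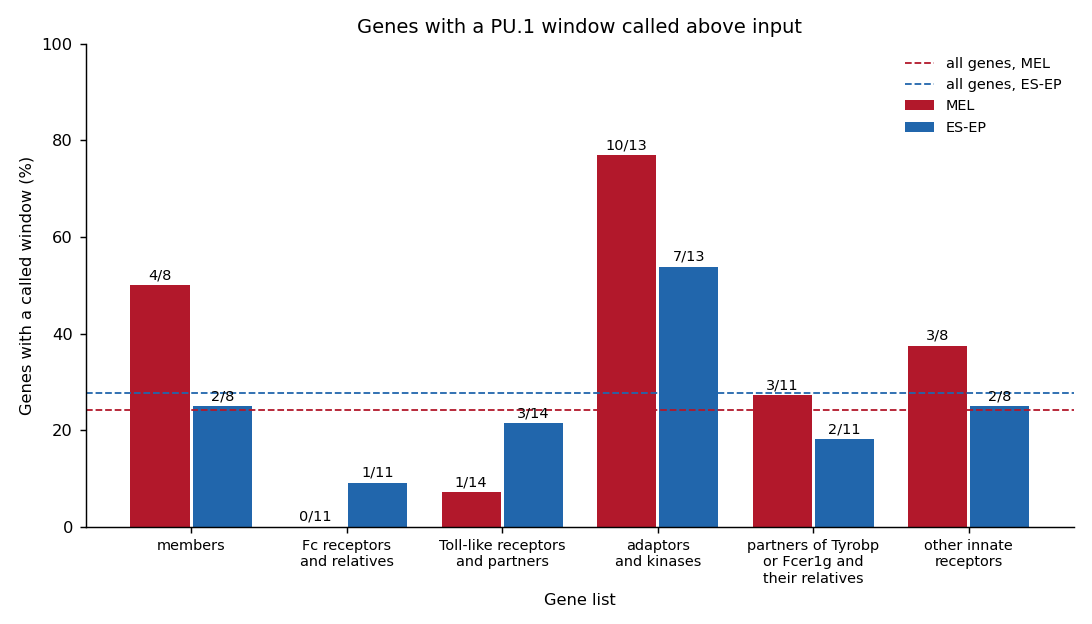
Percentage of genes with at least 1 window called above input in MEL cells (red) and ES-EP (blue) for the 8 members and the 5 lists of other pathway genes, with the number of genes above each bar and dashed lines for all protein-coding genes (24.1% in MEL cells and 27.6% in ES-EP). Adaptors and kinases reach 10 of 13 and 7 of 13, and the members 4 of 8 and 2 of 8. Hcst among the adaptors and Tyrobp among the members were counted through the same 2 windows.

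Between cell types 9 of these 57 regions differed in ChIP reads, 5 being higher in MEL cells (beside 5.99% of all gene regions) while 4 were higher in ES-EP (beside 2.95%). Relative to input 8 of the 9 did not pass (adjusted p between 0.339 and 1, exact conditional test). The exception was Irak4, a kinase of Toll-like receptor signalling, whose direction turned. Its ChIP reads were higher in MEL cells (log2 difference 0.72, limma adjusted p = 0.0457), whereas its ChIP to input ratio was 0.870 in MEL cells against 1.24 in ES-EP (adjusted p = 0.0200, exact conditional test). In all 5 of the 57 passed relative to input, beside 6.59% of all gene regions, 1 being higher in MEL cells (Fcer1a) while 4 were higher in ES-EP (Ticam1, Irak1, Irak4 and Trem1). Fcer1a, Ticam1 and Trem1 had no called window in either cell type. Their ChIP to input ratios in MEL cells against ES-EP were 1.44 against 0.724, 0.680 against 1.17 and 0.546 against 0.952, in this order. The exact conditional test sums the preparations and does not measure their spread. At Irak1 the preparations held 182 and 289 reads in MEL cells versus 274 and 152 in ES-EP. The largest differences were at Tlr7 and Tlr8 on chromosome X, receptors for single-stranded RNA, with 4 and 3 ChIP reads at Tlr7 in MEL cells against 53 and 51 in ES-EP, and 1 and 3 at Tlr8 against 36 and 36. Their input was 0 reads in MEL cells versus 53 in ES-EP at each gene, so that the MEL input was at most 0.0991 times that of ES-EP at a floor of 3 reads. Both are among the 8 regions that did not pass relative to input. Their MEL ChIP to input ratio is not defined without input reads, so that test could say little about them. In ChIP reads Syk was higher in MEL cells (log2 difference 1.07, SE 0.17, limma adjusted p = 0.00319) with an input ratio of 1.79. The Hcst region, which overlaps that of Tyrobp, was higher too (1.13, limma adjusted p = 0.0238, input ratio 2.82).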

How the data were processed

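Each line of the deposited files is 1 aligned read (its position, strand and bases), a unit other than a count or a signal. Sequencing was on an Illumina GAII, and the authors ran ELAND (version not given in the sources used here) against mm9 and kept unique alignments with up to 2 mismatches. In 2000 reads per library, 99.6% to 100% matched NCBIM37 (mm9) within 2 mismatches. ChIP libraries held 2054667 to 4840424 reads on assembled chromosomes, with 2.84% to 9.00% at a repeated position.

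The study's methods give duplicate chromatin preparations, and the letter in a title was taken as the preparation and the number as its sequenced library. The deposited ES-EP data are also lettered C and D, which divides these libraries as A and B do. Read starts were moved by 70 bp (MEL) or 65 bp (ES-EP), summed per preparation and counted in 500 bp windows (as RPM where scaled to depth) and in GENCODE gene regions with 10 kb on each side. ChIP was compared with input by exact binomial tests (scipy 1.17.1), and cell types by limma 3.58.1 (voom, two-sided, at least 20 reads). Both were tested on simulated data. Alternatives were repeated reads, grid, width, shift, local input, scaling, filters, libraries, trend, replicate block and leaving out preparations. The deviations of the A preparations from their cell type means were correlated between cell types with r = 0.00835 over 65012 windows. Windows of as few as 20 reads carry much counting error, so this cannot decide whether the letters mark a shared batch. The members and lists were chosen with earlier results of these data known. All 8 members are described. For each, the windows named are those called in either cell type, otherwise those with most reads. Of each list at most 4 genes with the highest ratio were to be named. Syk, Hcst, Irak4, Fcer1a, Ticam1, Trem1, Tlr7, Tlr8 and the windows at start sites were added after their values were seen.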

Additional observations from a re-analysis of the deposited data

Results flagged for a closer look

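In the Tlr4 window chr4:66510001-66510500 of ES-EP, library A2 stood apart from the other 3 libraries of its group. It held 0.763 RPM, which is 3 reads, while the others lay between 0.413 and 0.443, and its gap to the nearest was 0.914 of the whole range, above Dixon's 95% critical value for 4 samples. This was 1 of 24 groups examined in the named windows, and none of 16 groups over the gene regions stood apart in this way. Chance gives about 1 such case in 20 groups.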

How the results depend on the processing

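The counts of called member windows, 5 in MEL cells and 4 in ES-EP, were 25 and 18 with the Poisson test on the mean input of 5 kb where higher (7 and 7 of the 8 genes) and 10 and 8 with scaling by windows below the 90th percentile of reads (4 genes in ES-EP). Calls rose over the whole genome too, from 3.31% and 3.01% of tested windows to 25.6% and 15.4% with the Poisson test, which called a window at 70.1% and 64.3% of all genes. With the other scaling they rose to 6.74% and 5.75% of tested windows, and 39.8% and 42% of all genes had a called window. With each preparation tested by itself 2 were called in ES-EP (1.13% of all windows). Leaving out a preparation, which also lowers the number of windows tested, gave 7 to 10 in MEL cells and 3 to 7 in ES-EP, with 5 to 6 and 2 to 4 genes, while 13.1% to 14.9% and 4.40% to 18.3% of all windows were called. Of all protein-coding genes 20.3% to 38.8% in MEL cells and 16.8% to 40.7% in ES-EP then had a called window. The 1 member window that differed between cell types became 0 with 1000 bp windows, without a shift, with a minimum of 40 reads and with the letter as a replicate block (0.0108%, 0.181%, 0.104% and 0.0154% of all windows, from 0.241%). It became 4 with the limma trend, 2 when libraries entered as samples and 2 with median-ratio scaling (2.68%, 2.10% and 2.11%). Without 1 preparation, which leaves a single preparation in a cell type, the log2 difference of the Fcgr1 window lay between 2.42 and 3.13. The 3 gene regions that differed became 2 with the replicate block (beside 9.47% of all gene regions, from 8.94%). They became 4 when libraries entered as samples or scaling was by median ratios, where Tlr2 was added (beside 17.7% and 12.7%). With the ChIP to input ratio compared instead, chosen after seeing the data, both counts were 0. Over all windows the calls between cell types fell from 157 to 10 with the replicate block and were 1743 with the limma trend, and 4202 had an unadjusted p below 0.05. The log2 difference of the Fcgr1 region stayed between 1.43 and 1.56 and passed under all 10 other limma settings, that of Tyrobp passed under 8 and that of Tlr4 under 6. Relative to input the sign of all 3 called regions turned, to a log2 ratio of −0.045 at Fcgr1, −0.29 at Tyrobp and 0.26 at Tlr4, as did that of the Fcgr1 window (−0.94), none of them past the test. In the limma settings no called value changed its sign. The depth limits windows with 1 to 3 input reads to wide intervals, and the causes of these changes were not tested.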
